A study of Homo sapiens with 9 samples.

Results

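The genes described here are those of the MHC class II antigen presentation pathway, led by the HLA-DM chains, in the ovarian cancer line SKOV-3 on soft and stiff hydrogels. The list named 10 genes by symbol, namely HLA-DMB, HLA-DMA, HLA-DRA, HLA-DRB1, HLA-DPA1, HLA-DPB1, CD74, CIITA, CTSS and IFI30. Of these, 9 had a row among the 36343 genes of the gene tables, and HLA-DRB1 was not analysed here. The family was chosen by the measured difference of HLA-DMB between the softest and the stiffest gel, so the values of HLA-DMB are given as a description and without a test. SKOV-3 is an established human line of epithelial ovarian cancer cells. The cells were kept for 3 days in dishes coated with polyacrylamide hydrogel of 0.5, 4 or 25 kPa, with no further treatment, and poly(A) RNA was sequenced. There were 3 libraries per gel, numbered 1, 2 and 3 on 0.5 and 4 kPa and 2, 3 and 4 on 25 kPa. No source states that each library had a culture of its own. The p-values therefore measure spread between these libraries, and that spread may be technical.

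MHC class II molecules are pairs of an alpha and a beta chain that show peptides from lysosomes to CD4 T cells. Newly made pairs are held by the invariant chain CD74, which lysosomal proteases such as cathepsin S trim to a short remnant, and HLA-DM then removes the remnant and favours peptides that bind tightly. HLA-DM itself is a pair of HLA-DMA and HLA-DMB and shows no peptide. Professional antigen presenting cells such as B cells, macrophages and dendritic cells carry the pathway constantly. In many epithelial and tumour cells it is switched on by interferon gamma, through the transactivator CIITA, which joins the factors bound at class II promoters.

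The total count per library was 19609740 to 21033433, so that 3 counts, taken as the floor of detection, stood for 0.144 to 0.152 CPM, the count scaled by library size. Intervals and floors of this kind cover counting error only. The labelled cell type was checked on its markers. All 10 epithelial and ovarian markers passed the count filter and summed to 4898 to 5746 CPM. ERBB2 was by far the largest part of this sum, at 58113 to 84844 counts, and WT1 (12 to 27 counts) and MUC16 (3 to 20 counts) were low. The markers of B cells summed to at most 0.958 CPM and those of monocytes, macrophages and dendritic cells to at most 1.87 CPM, the pan-leukocyte gene PTPRC had 0 to 3 counts, and the T cell gene CD3E had 0 in all libraries. The fibroblast markers summed to 54.5 to 66.0 CPM, with COL1A1 at 661 to 862 counts and DCN at 0 to 3, and the endothelial markers to 0.965 to 2.18 CPM. Their part in the results was not tested. The replicate 3 libraries of 0.5 and 4 kPa stood apart from the others of their gel, with a chi-square per degree of freedom of 11.7 to 21.8 against 2.87 and 2.98 for the remaining pairs on these gels. On 25 kPa replicate 2 had 10.8 with replicate 3 and 5.81 with replicate 4, against 3.53 for replicates 3 and 4. The RNA MALAT1 took 0.34 to 0.40% of the counts on 0.5 kPa, 0.13 to 0.22% on 4 kPa and 0.13 to 0.15% on 25 kPa. Genes with a count numbered 25834 to 26415 on 0.5 kPa, 25615 to 26024 on 4 kPa and 24764 to 25079 on 25 kPa. What these differences do to genes of low counts was not tested. Mitochondrial transcripts took 5.21 to 5.74% of the counts on 0.5 kPa, against 3.99 to 4.41% on 4 kPa and 4.15 to 4.6% on 25 kPa. For comparison, the log2 fold change of HLA-DMB was 2.17 with mitochondrial genes left out and 2.09 without both replicate 3 libraries, against 2.16 with all.

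HLA-DMB (ENSG00000242574, on the minus strand of chromosome 6 at 32934629 to 32941070 in hg38) encodes the beta chain of HLA-DM. On 0.5 kPa its libraries had 442, 413 and 521 counts. On 4 kPa they had 114, 144 and 231, and on 25 kPa 108, 105 and 89. The 3 gels did not overlap, with 0.5 kPa highest and the lowest 4 kPa library only just above the highest 25 kPa library. Scaled for library size, mean levels were 22.5 ± 2.18 CPM (SD, n = 3) on 0.5 kPa, then 8.02 ± 2.91 on 4 kPa, then 5.03 ± 0.618 on 25 kPa. The log2 fold change from edgeR was 2.16 (standard error 0.20) between 0.5 and 25 kPa, which is 4.47-fold. It was 1.48 (standard error 0.19) between 0.5 and 4 kPa and 0.68 (standard error 0.21) between 4 and 25 kPa. Of 11243 genes averaging 5 CPM or more, 0 had a larger positive log2 fold change between 0.5 and 25 kPa, 2 between 0.5 and 4 kPa and 39 between 4 and 25 kPa. Of all 16335 genes tested, 5, 26 and 520 had a larger one. Genes lower on the softer gel were not ranked, and these ranks hold the difference that chose the family. The step between 4 and 25 kPa leaned on the replicate 3 library of 4 kPa, without which the log2 fold change was 0.35. RNA of whole cultures was sequenced, so a larger share of cells with the transcript and more transcript per cell cannot be told apart.

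**Figure D1:**
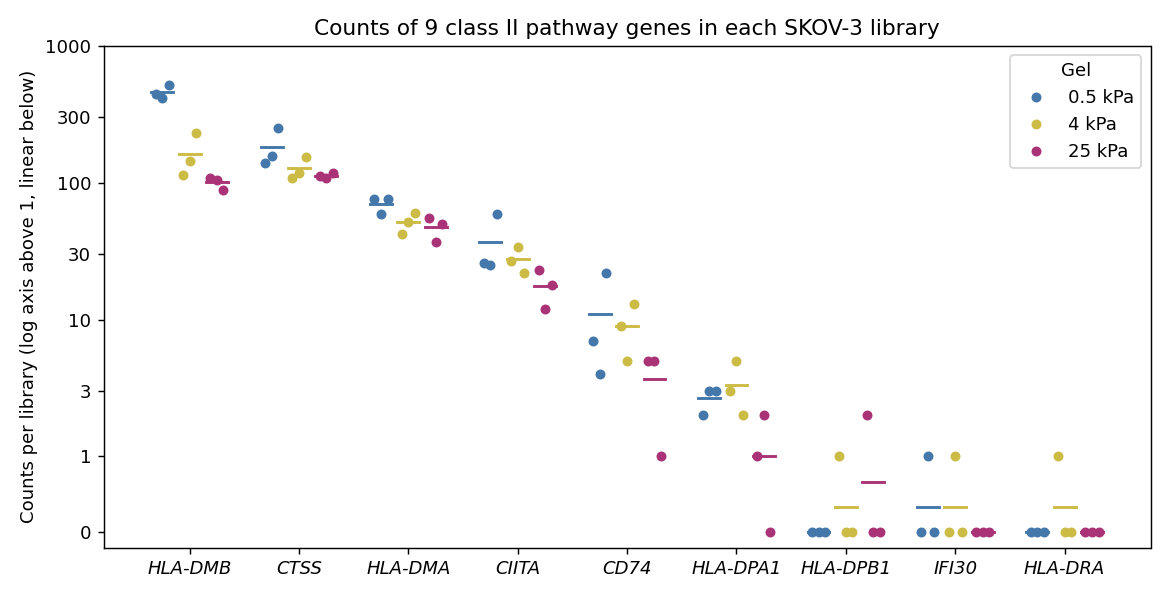
Counts of the 9 genes with a row in each of the 9 libraries, with the genes on the horizontal axis and counts per library on a vertical axis that is logarithmic above 1 and linear below. Points are libraries and bars the mean of 3 libraries of a gel. HLA-DMB ran from 413 to 521 counts on 0.5 kPa and from 89 to 108 on 25 kPa, while HLA-DRA, HLA-DPB1 and IFI30 had 0 to 2 counts in every library.

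Most of the HLA-DMB signal in the transcript table lay on the transcript that spans the whole gene. ENST00000418107 carried 79.0% of the FPKM (fragments scaled by transcript length and library size) summed over the 6 HLA-DMB transcripts. It was at 13.9, 13.9 and 16.8 FPKM on 0.5 kPa, at 5.79, 4.16 and 7.82 on 4 kPa and at 3.56, 4.00 and 3.74 on 25 kPa. The gels did not overlap for this transcript either, and 0.5 kPa was again the highest. The 5 others each held 0.901 to 10.2% of the sum. HLA-DMB shares 438 of its 4655 exon bases (9.41%) with a readthrough gene on the same strand, AL645941.2, so reads from there cannot be told apart.

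HLA-DMA (ENSG00000204257, chromosome 6 from 32948613 to 32969094, minus strand) encodes the alpha chain that pairs with HLA-DMB. Its libraries had 76, 59 and 76 counts on 0.5 kPa, 42, 52 and 60 on 4 kPa and 55, 37 and 50 on 25 kPa. The 0.5 kPa libraries did not overlap those of 25 kPa in CPM, and the libraries of 4 and 25 kPa were mixed. The log2 fold change of HLA-DMA was 0.55 (standard error 0.20) between 0.5 and 25 kPa, with an adjusted p of 0.11 from edgeR's quasi-likelihood test. It was 0.44 (standard error 0.19) between 0.5 and 4 kPa and 0.10 (standard error 0.20) between 4 and 25 kPa, with adjusted p of 0.33 and 0.87 in edgeR. None of the 3 passed, at 37 to 76 counts per library, which does not show that HLA-DMA was alike on the gels. HLA-DMA shares 174 of its 2534 exon bases (6.87%) with the readthrough gene AL645941.2 on its own strand and 55 (2.17%) with BRD2 on the opposite strand.

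HLA-DMB and HLA-DMA are the partners of a single dimer, so their ratio was followed in each library. Per length, the level of HLA-DMB exceeded that of HLA-DMA by 3.17, 3.81 and 3.73 times in the 0.5 kPa libraries. On 4 kPa the ratio of HLA-DMB to HLA-DMA FPKM was 1.48, 1.51 and 2.1, and on 25 kPa it was 1.07, 1.55 and 0.969. The 0.5 kPa libraries stood above all others, and those of 4 and 25 kPa overlapped. Averaged over a gel, the log2 ratio was 1.83 ± 0.15 (SD, n = 3) on 0.5 kPa, then 0.74 ± 0.28 on 4 kPa, then 0.23 ± 0.36 on 25 kPa. The level of the ratio depends on the lengths used. With FPKM summed over the transcripts of each gene, an alternative chosen after seeing the data, its geometric mean was 5.70 on 0.5 kPa, against 2.99 on 4 kPa and 2.20 on 25 kPa, in the same order of gels and with 4 and 25 kPa again overlapping. The ratio holds the value that chose HLA-DMB, and so it is described and not tested.

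**Figure D2:**
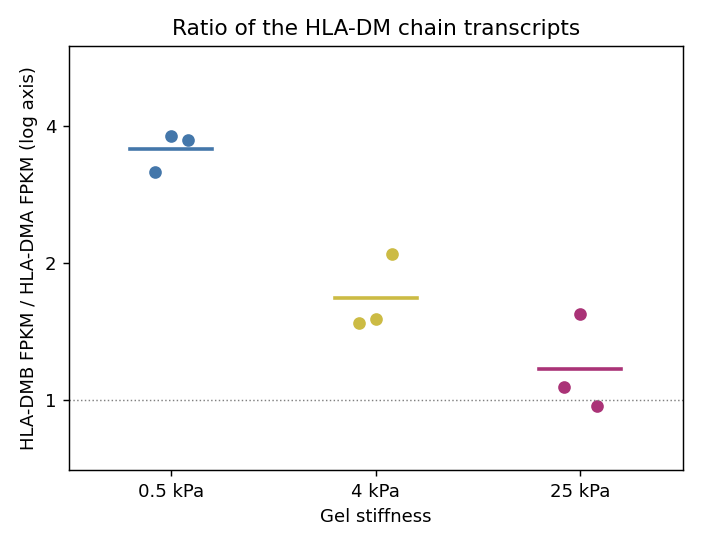
Ratio of HLA-DMB to HLA-DMA, in FPKM, by gel stiffness on a logarithmic vertical axis, with points for libraries and bars for the geometric mean of 3 libraries. The geometric mean was 3.56 on 0.5 kPa, 1.67 on 4 kPa and 1.17 on 25 kPa, and the dotted line marks a ratio of 1 by gene table lengths.

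The upstream letters of both HLA-DM genes are shown because the genes are close neighbours that gave different estimates between the gels, beside HLA-DRB1, whose promoter is of the classical class II kind. Class II promoters are known for an X box, bound by the RFX and CREB factors, and a Y box, bound by NF-Y, whose core reads CCAAT, or ATTGG on the other strand. Each stretch is 238 bases of RefSeq (GRCh38.p14), from 250 to 13 bases before the start site and read 5′ to 3′ along the gene on the minus strand, at chr6:32941041-32941278 for HLA-DMB, chr6:32953110-32953347 for HLA-DMA and chr6:32589861-32590098 for HLA-DRB1. Capitals mark CCAAT or ATTGG and the longest run that HLA-DMB and HLA-DMA share.
HLA-DMB: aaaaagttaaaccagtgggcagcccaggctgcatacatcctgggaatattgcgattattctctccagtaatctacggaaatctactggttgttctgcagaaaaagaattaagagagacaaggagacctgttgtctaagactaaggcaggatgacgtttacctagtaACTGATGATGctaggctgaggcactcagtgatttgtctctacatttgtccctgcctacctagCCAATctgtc
HLA-DMA: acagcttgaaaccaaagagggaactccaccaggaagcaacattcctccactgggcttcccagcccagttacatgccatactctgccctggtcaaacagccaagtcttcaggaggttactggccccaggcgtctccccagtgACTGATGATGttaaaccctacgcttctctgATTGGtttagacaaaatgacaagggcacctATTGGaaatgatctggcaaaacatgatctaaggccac
HLA-DRB1: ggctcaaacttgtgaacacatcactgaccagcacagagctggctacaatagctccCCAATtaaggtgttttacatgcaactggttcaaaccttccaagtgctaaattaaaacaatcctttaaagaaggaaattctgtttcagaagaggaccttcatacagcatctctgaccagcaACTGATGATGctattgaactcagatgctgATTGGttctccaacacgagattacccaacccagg
The shared run is ACTGATGATG, 84 to 75 bases before the start site in HLA-DMB, 109 to 100 in HLA-DMA and 75 to 66 in HLA-DRB1. Chosen after the letters were seen, it stands on either strand in 24 of 35116 windows of the same length (0.0683%). Of these windows, 3 are of genes whose symbol begins with HLA-D, namely HLA-DMB and HLA-DMA, which defined the run, and HLA-DRB1. The windows of HLA-DPA1 and HLA-DPB1 do not hold the run. In HLA-DMA, ATTGG follows the run after 20 bases and again after 50, and in HLA-DRB1 it follows after 19. In HLA-DMB no ATTGG follows. The 5 letters that begin 20 bases after its run differ from ATTGG by G4T, counted from 1 at the 5′ end, and the window's CCAAT lies 22 bases before the start site.

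Other motifs searched on both strands of the same windows were GCAAC (part of the X box), then TGACG (part of a cyclic AMP response element), TTCNNNGAA (a gamma-activated site) and GAAANNGAA (part of an interferon response element). HLA-DMB held TGACG 100 bases and GAAANNGAA 152 bases before its start site, and HLA-DMA held GCAAC at 215. HLA-DRB1 held GCAAC at 175 and at 78, where it overlaps the shared run, and GAAANNGAA at 119. Over all windows, CCAAT was in 31.3%, GCAAC in 26.9%, TGACG in 20.3%, GAAANNGAA in 6.49% and TTCNNNGAA in 6.37%. Of the 10 genes, 7 were matched by symbol, with 8 windows. HLA-DRA, CIITA and CTSS were not among them. Such matches describe letters and show neither binding nor a cause of the levels.

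Of the chains that carry peptides on the cell surface, those with a row were at or near 0 on every gel. HLA-DRA (ENSG00000204287), the nearly invariant alpha chain of HLA-DR, had 1 count in replicate 1 of 4 kPa and 0 in the 8 other libraries, of 182437796 counts in all. HLA-DPB1 (ENSG00000223865) had 1 count in replicate 1 of 4 kPa and 2 in replicate 2 of 25 kPa, and 0 elsewhere. HLA-DPA1 (ENSG00000231389) had 2, 3 and 3 counts on 0.5 kPa, 3, 5 and 2 on 4 kPa and 1, 2 and 0 on 25 kPa. Together the 3 chains had 0 to 5 counts per library, at most 0.245 CPM for any of them. In the transcript table HLA-DPA1 summed to at most 0.188 FPKM in a library and HLA-DPB1 to at most 0.14, and HLA-DRA had 0 transcripts. None of these chains passed the filter on low counts, and no fold is given. The same held for the other class II chains, of which 5 of 12 listed had a row (HLA-DQB1, HLA-DQB2, HLA-DPB2, HLA-DOA and HLA-DOB), with 0 to 4 counts.

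CD74 (ENSG00000019582, chromosome 5 from 150401637 to 150412929, minus strand) is the invariant chain that class II pairs rely on from the endoplasmic reticulum to the lysosome. It had 7, 4 and 22 counts on 0.5 kPa, 9, 5 and 13 on 4 kPa and 5, 5 and 1 on 25 kPa. The gels overlapped, the highest value was in replicate 3 of 0.5 kPa, and CD74 did not pass the filter. In FPKM its mean level was 0.169 ± 0.146 (SD, n = 3) on 0.5 kPa, then 0.141 ± 0.0622 on 4 kPa, then 0.0566 ± 0.0361 on 25 kPa.

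CIITA (ENSG00000179583, chromosome 16 from 10866222 to 10943021, plus strand), the transactivator of the class II genes, was detected in every library at a low level. There were 26, 25 and 59 counts on 0.5 kPa, 27, 34 and 22 on 4 kPa and 23, 12 and 18 on 25 kPa. Only replicate 3 of 0.5 kPa stood well above the rest, and the 0.5 and 4 kPa libraries overlapped. The log2 fold change of CIITA was 1.02 (standard error 0.36) between 0.5 and 25 kPa, with an adjusted p of 0.11 in edgeR. It was 0.39 (standard error 0.34, adjusted p = 0.67 in edgeR) between 0.5 and 4 kPa and 0.63 (standard error 0.38, adjusted p = 0.48 in edgeR) between 4 and 25 kPa. Without replicate 3 of 0.5 kPa these became 0.53 between 0.5 and 25 kPa and -0.11 between 0.5 and 4 kPa. With transcript counts summed per gene the estimates were -0.54 for 0.5 against 25 kPa, 1.01 for 0.5 against 4 kPa and -1.55 for 4 against 25 kPa. CIITA shares 2416 of its 20757 exon bases (11.6%) with DEXI on the opposite strand and 2378 (11.5%) with AC133065.3 on its own.

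CTSS (ENSG00000163131, chromosome 1 from 150730196 to 150765957, minus strand) encodes cathepsin S, which trims the invariant chain. Its libraries had 139, 157 and 252 counts on 0.5 kPa, 109, 118 and 155 on 4 kPa and 112, 109 and 117 on 25 kPa. The 0.5 kPa libraries lay above those of 25 kPa and overlapped those of 4 kPa. For CTSS the log2 fold change was 0.67 (standard error 0.20) between 0.5 and 25 kPa, with an adjusted p of 0.058 in edgeR, just short of the threshold of 0.05. Between 0.5 and 4 kPa it was 0.51 (standard error 0.19, adjusted p = 0.25 in edgeR), and between 4 and 25 kPa 0.16 (standard error 0.20, adjusted p = 0.77 in edgeR). The call for 0.5 against 25 kPa turned on the processing, with an adjusted p of 0.031 in DESeq2, 0.04 in edgeR on the 6 libraries alone and 0.00085 without a count filter, and over all alternatives 5 of 22 made it. Without replicate 3 of 0.5 kPa the log2 fold change was 0.40 (adjusted p = 0.20 in edgeR), without replicate 1 of 0.5 kPa the adjusted p was 0.031, and without replicate 3 of 4 kPa it was 0.024.

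IFI30 (ENSG00000216490, chromosome 19 from 18173162 to 18178117, plus strand) encodes GILT, a lysosomal thiol reductase that opens the disulfide bonds of proteins bound for class II. The gene table listed 1 count in replicate 2 of 0.5 kPa, 1 in replicate 2 of 4 kPa and 0 in the 7 other libraries. In the transcript table the same gene was well above 0. Its main transcript ENST00000407280 was at 4.68, 10.45 and 12.8 FPKM on 0.5 kPa, 7.95, 10.8 and 13.3 on 4 kPa and 9.66, 9.20 and 7.36 on 25 kPa. The gels overlapped. IFI30 shares 997 of its 2481 exon bases (40.2%) with AC007192.1, a readthrough gene on the same strand that had 2 counts in the 9 libraries. The gene table value of IFI30 was therefore not read as a level.

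**Figure D3:**
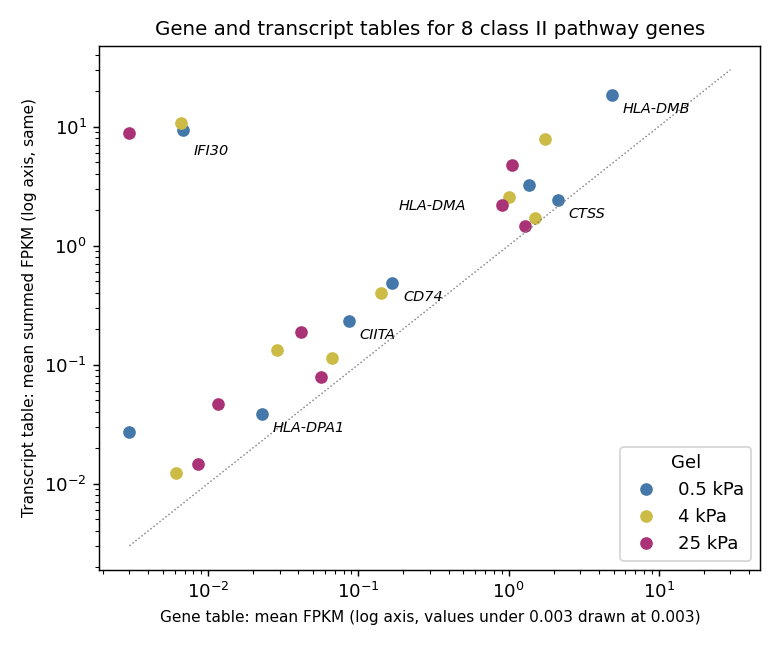
Mean FPKM over 3 libraries of a gel in the gene table (horizontal, log axis) against the FPKM summed over the gene's transcripts in the transcript table (vertical, log axis) for the 8 genes with transcripts in that table, with the dotted line where both are equal and values under 0.003 drawn at 0.003 (the points without a name are HLA-DPB1 and the other gels of the named genes). IFI30 stands apart, with a summed transcript FPKM of 9.37 on 0.5 kPa, 10.7 on 4 kPa and 8.74 on 25 kPa against at most 0.00684 in the gene table.

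Ordered by level per length in the gene table, HLA-DMB led on 0.5 kPa at 4.86 ± 0.496 FPKM, above CTSS at 2.13 ± 0.676 and HLA-DMA at 1.37 ± 0.158 (SD, n = 3), and none of these neighbours overlapped. On 4 kPa HLA-DMB at 1.74 ± 0.630 FPKM and CTSS at 1.501 ± 0.271 overlapped, and both lay above HLA-DMA at 1.01 ± 0.162. On 25 kPa CTSS at 1.30 ± 0.0160 FPKM was highest, while HLA-DMB at 1.05 ± 0.127 and HLA-DMA at 0.908 ± 0.163 overlapped. The transcript table gave another order, in which FPKM summed over transcripts put HLA-DMB (4.75 on 25 kPa) and HLA-DMA (2.17) above CTSS (1.45) and IFI30 (8.74) above all of them. In the gene table CD74 and CIITA followed on every gel, overlapped each other and stayed below 0.34 FPKM in every library. The median gene tested was at 3.91 FPKM, so that even HLA-DMB was above it only on 0.5 kPa.

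Of the 9 genes with a row, 4 passed the filter on low counts (HLA-DMB, HLA-DMA, CIITA and CTSS) and 5 did not. Between 0.5 and 25 kPa 1 of the 4 was called at an adjusted p under 0.05, HLA-DMB, and 6.69% of all 16335 genes tested were. This count includes the difference that chose the family, and nothing is read from it. Between 0.5 and 4 kPa 1 of the 4 was called, again HLA-DMB, beside 2.05% of all genes, and nothing is read from this count either, since it rests on the same 0.5 kPa libraries. Between 4 and 25 kPa 0 of the 4 were called in edgeR, beside 0.9% of all genes, with 1 at an unadjusted p under 0.05 and 0 in DESeq2. In this fit the estimates of all 4 were positive, that is higher on the softer gel, in each comparison. With transcript counts summed, that of CIITA turned negative for 0.5 against 25 kPa (-0.54) and for 4 against 25 kPa (-1.55). It stayed positive for 0.5 against 4 kPa (1.01), but turned to -0.11 there without replicate 3 of 0.5 kPa. That of HLA-DMA between 4 and 25 kPa turned to -0.02 without replicate 3 of 4 kPa or of 25 kPa. The median log2 fold change over all genes was 0.01 or less in size.

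**Figure D4:**
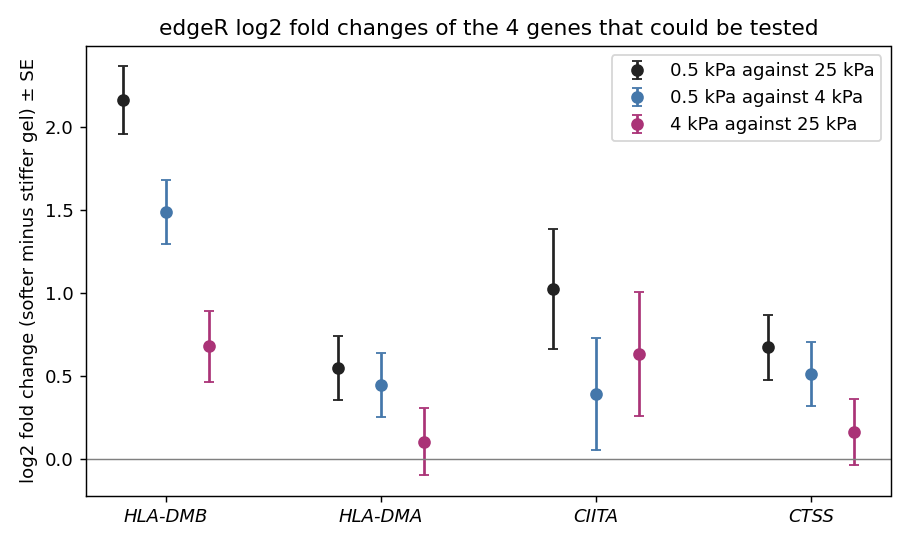
Log2 fold change, softer minus stiffer gel, with its standard error from the edgeR fit over 9 libraries, for the 4 genes that passed the count filter and the 3 pairs of gels. HLA-DMB lies at 2.16, 1.48 and 0.68, and HLA-DMA, CIITA and CTSS lie between 0.10 and 1.02. Within each pair of gels the errors of HLA-DMA, CIITA and CTSS overlap each other. Between 4 and 25 kPa the error of HLA-DMB overlaps that of CIITA, which lies at 0.63.

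The other genes of the pathway were read from 8 lists by role, with 110 genes of which 97 had a row and 84 were tested. Between 0.5 and 25 kPa 5 of the 84 (5.95%) were called, 4 higher and 1 lower on 0.5 kPa, with a median log2 fold change of 0.06. Between 0.5 and 4 kPa 3 of the 84 (3.57%) were called, 1 higher and 2 lower, and between 4 and 25 kPa 1 (1.19%) was. The shares over all genes were 6.69, 2.05 and 0.9% for these comparisons. Without both replicate 3 libraries 13, 11 and 7 of the listed genes were called, in a fit that called 1936, 895 and 1119 genes in all.

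The factors that bind class II promoters were all expressed and gave no call. All 11 passed the filter, among them RFXANK, a subunit of RFX, at 30.6 FPKM, RFX5 at 12.8, RFXAP at 6.15 and NFYA, a subunit of NF-Y, at 13.6. Between 0.5 and 25 kPa 0 of the 11 were called in edgeR or DESeq2 and 0 had an unadjusted p under 0.05. Their median log2 fold change was -0.06. In the other comparisons 0 were called by either tool, with 1 and 2 at an unadjusted p under 0.05.

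Of the route from interferon gamma to CIITA, 11 of 12 genes were tested. The kinase JAK1 was the most abundant at 51.7 FPKM, and its estimate between 0.5 and 25 kPa was -0.13 on the log2 scale (standard error 0.08, adjusted p = 0.37 in edgeR). SOCS3, an inhibitor of cytokine signaling through JAK kinases, was called in the comparisons with 4 kPa. Its mean was 24.8 ± 1.90 CPM (SD, n = 3) on 4 kPa, above 11.5 ± 1.05 on 0.5 kPa and 14.6 ± 0.478 on 25 kPa. SOCS3 fell by 1.11 on the log2 scale from 4 to 0.5 kPa (standard error 0.10, adjusted p = 2.9e-05 in edgeR) and was higher by 0.76 on 4 than on 25 kPa (standard error 0.10, adjusted p = 0.0018 in edgeR). Between 0.5 and 25 kPa 0 of the 11 were called in edgeR or DESeq2, with 2 at an unadjusted p under 0.05.

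Among genes known to answer to interferon gamma, 7 of 11 were tested and 2 rose on 0.5 against 25 kPa, both guanylate-binding proteins. GBP5 averaged 51.6 ± 2.02 CPM (SD, n = 3) on 0.5 kPa, then 34.9 ± 5.62 on 4 kPa, then 28.2 ± 0.997 on 25 kPa. The log2 fold change of GBP5 was 0.87 (standard error 0.10, adjusted p = 0.00026 in edgeR) between 0.5 and 25 kPa and 0.56 (standard error 0.10, adjusted p = 0.01 in edgeR) between 0.5 and 4 kPa. GBP2 was at 9.33 ± 1.23 CPM on 0.5 kPa and 6.24 ± 0.605 on 25 kPa, 0.58 higher on the log2 scale (standard error 0.13, adjusted p = 0.021 in edgeR). The other 5 did not pass between 0.5 and 25 kPa. Of these, GBP4 at 0.82 on the log2 scale (standard error 0.30, adjusted p = 0.11 in edgeR) had an unadjusted p under 0.05. So did NLRC5 at -0.22 (standard error 0.09, adjusted p = 0.16 in edgeR). IDO1, a tryptophan-degrading enzyme at 60.2 FPKM, stood at -0.06 on the log2 scale (standard error 0.09) and WARS, a tRNA synthetase at 34.8 FPKM, at 0.21 (standard error 0.28). The chemokines CXCL10 and CXCL11 had 0 to 3 and 0 to 1 counts. The GBP2 call was lost without replicate 2 of 0.5 kPa (adjusted p = 0.10 in edgeR), replicate 3 of 25 kPa (0.076) or replicate 4 of 25 kPa (0.085), and the GBP5 call against 4 kPa was lost without replicate 2 of 0.5 kPa (0.064). With transcript counts summed per gene, GBP2 (0.13) and GBP5 against 25 kPa (0.18) and 4 kPa (0.78) were not called. With the replicate number as a block, GBP2 (0.091) and GBP5 against 4 kPa (0.071) were not called, and GBP5 against 25 kPa was (0.026).

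All 16 lysosomal proteases and inhibitors passed the filter, at 0.758 (CTSV) to 181.5 FPKM (CTSD), and 1 of 16 was called between 0.5 and 25 kPa. CTSD (181.5 FPKM) and CTSB (111.3 FPKM), the most abundant cathepsins, had log2 fold changes of 0.39 (standard error 0.13, adjusted p = 0.10 in edgeR) and 0.09 (standard error 0.11, adjusted p = 0.66 in edgeR). CTSO, a cysteine protease at 2.85 FPKM, averaged 10.50 ± 1.98 CPM on 0.5 kPa and 6.88 ± 0.701 on 25 kPa, 0.61 higher on the log2 scale (standard error 0.15, adjusted p = 0.031 in edgeR). The CTSO call was lost without replicate 2 of 0.5 kPa (adjusted p = 0.083 in edgeR), replicate 3 of 0.5 kPa (0.11), replicate 2 of 25 kPa (0.11) or replicate 4 of 25 kPa (0.13). It was also lost with transcript counts summed per gene (0.22) and with the replicate number as a block (0.066). Between 0.5 and 25 kPa 5 of the 16 had an unadjusted p under 0.05 and 2 were called in DESeq2. In the other comparisons 0 of the 16 were called in edgeR or DESeq2, with 3 and 1 at an unadjusted p under 0.05.

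Genes of class II traffic and turnover gave 0 calls among 14 tested in all 3 comparisons, in edgeR and in DESeq2. At an unadjusted p under 0.05 there were 3 between 0.5 and 25 kPa, 0 between 0.5 and 4 kPa and 1 between 4 and 25 kPa. The most abundant were the lysosomal tetraspanin CD63 (215.1 FPKM), with a log2 fold change of 0.23 (standard error 0.11) between 0.5 and 25 kPa, and the late endosomal GTPase RAB7A (108.3 FPKM), with 0.05 (standard error 0.06). Of the genes for contact with T cells 8 of 11 were tested. Between 0.5 and 25 kPa 3 of the 8 had an unadjusted p under 0.05 and 1 was called in edgeR and in DESeq2. TNFSF9, the ligand of the costimulatory receptor 4-1BB, fell on 0.5 kPa. It averaged 48.0 ± 4.11 CPM (SD, n = 3) there, 69.1 ± 0.726 on 4 kPa and 70.1 ± 3.22 on 25 kPa. The difference on the log2 scale was -0.55 (standard error 0.08, adjusted p = 0.001 in edgeR) between 0.5 and 25 kPa and -0.53 (standard error 0.08, adjusted p = 0.0025 in edgeR) between 0.5 and 4 kPa. Both calls were lost with transcript counts summed per gene (adjusted p = 0.16 and 0.27 in edgeR). CD276, an immune checkpoint ligand at 19.0 FPKM, had 0.05 (standard error 0.08) between 0.5 and 25 kPa. CD80 and CD86 were not analysed here.

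Among the genes listed from the class II region, no other had an estimate as large as that of HLA-DMB. The region was not searched beyond this list. The 5 listed and tested genes that start nearest to HLA-DMB, HLA-DMA aside, are the transporter subunits TAP1 and TAP2, the immunoproteasome subunits PSMB8 and PSMB9, and BRD2, a chromatin reader. All serve class I presentation except BRD2. Between 0.5 and 25 kPa 0 of these 5 were called in edgeR, with 1 (PSMB9) at an unadjusted p under 0.05 and 1 called in DESeq2. For PSMB9 the estimate was 0.44 on the log2 scale (standard error 0.13, adjusted p = 0.057 in edgeR). PSMB8 had 0.23 (standard error 0.12), and TAP1, TAP2 and BRD2 had 0.06 to 0.07 (standard errors 0.06 to 0.09). Of all 17 listed neighbours tested, 4 had an unadjusted p under 0.05 between 0.5 and 25 kPa and 2 were called in DESeq2. In edgeR 1 was called, TAPBP, which links class I molecules to the transporter and starts 373.3 kb away. TAPBP rose on 0.5 kPa by 0.42 (standard error 0.08, adjusted p = 0.007 in edgeR). The most abundant of the 17, RPS18 at 366.0 FPKM, had 0.15 (standard error 0.11). The TAPBP call was lost without replicate 4 of 25 kPa (adjusted p = 0.06 in edgeR), and with transcript counts summed per gene its log2 fold change was 0.01.

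**Figure D5:**
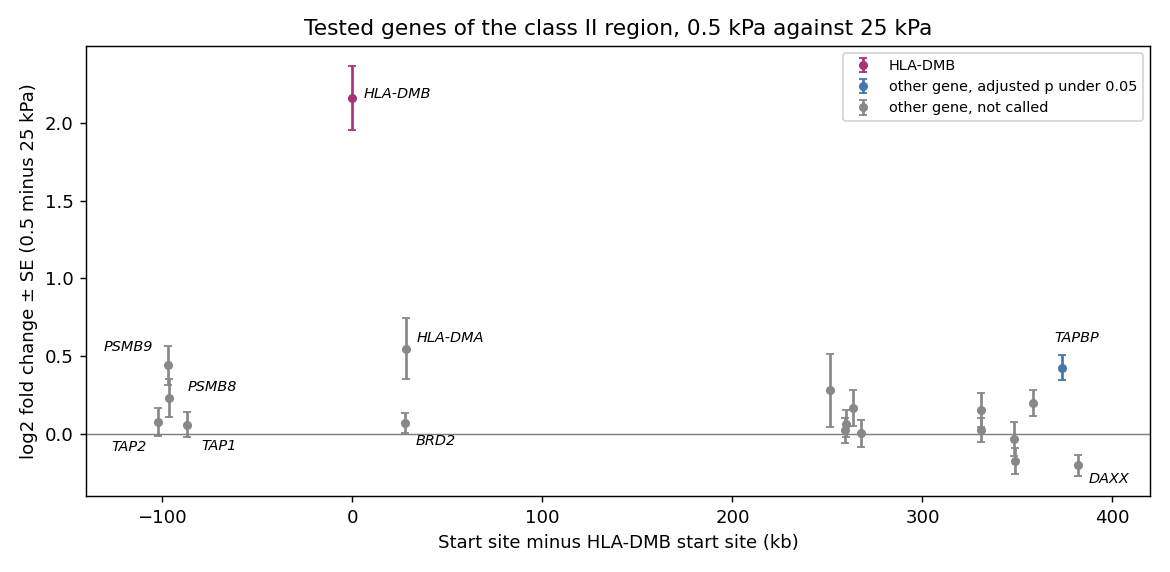
Log2 fold change of 0.5 against 25 kPa with its standard error (vertical) for the tested genes listed from the class II region. The horizontal axis gives the distance of their start sites from that of HLA-DMB in kb. Start sites are the 5′ ends of the gene spans, which for HLA-DMA is not the start site of its promoter window. HLA-DMB stands at 2.16 and HLA-DMA at 0.55, while the 17 other genes lie between -0.20 (DAXX) and 0.44 (PSMB9).

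Genes with the pattern most like HLA-DMB were sought by the Pearson correlation of log2 CPM over the 9 libraries, among the 11243 genes averaging 5 CPM or more. The 5 highest were SOD3, the extracellular superoxide dismutase (r = 0.983), ACSL5, a fatty acid activating enzyme (r = 0.974), FBLN1, a matrix glycoprotein (r = 0.974), PKDCC, a secreted kinase (r = 0.974), and FLI1, an ETS transcription factor (r = 0.973). All had smaller folds than HLA-DMB, SOD3 averaging 30.5 CPM on 0.5 kPa, then 18.1 on 4 kPa, then 15.8 on 25 kPa. Of the class II genes, HLA-DMA had r = 0.843, CTSS 0.836 and CIITA 0.596 with HLA-DMB. These correlations describe 9 libraries in 3 gels and share the level differences between the gels, so no p is given.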

How the data were processed

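RNA of SKOV-3 cells on gels of 0.5, 4 and 25 kPa was sequenced in 9 libraries. The submitters' processing notes name bcl2fastq, FastQC 0.11.5, HISAT2 2.1.0 and build hg38. Not given in the sources used here were the program for counting, its strandedness and the gene models. The paper's methods name a TruSeq kit and the labels a NEBNext Ultra kit, and the paper's results speak of a microarray. The authors deposited raw counts per gene as whole numbers, FPKM values per gene, and FPKM and estimated counts per transcript, which were used only for the transcript values and an alternative. Positions equal those of GENCODE 29. Another 3 per-sample columns fit no label and were left out.

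edgeR 4.0.16 (R 4.3.3) kept 16335 genes by filterByExpr, scaled by TMM and fitted all 9 libraries in a robust quasi-likelihood model. Each pair of gels was compared, and p-values were adjusted by Benjamini-Hochberg over the 16335 genes. CPM are per TMM-scaled total, and log2 CPM for correlations used a prior count of 2. The test was checked on simulated counts with the same spread for every gene, in which only genes averaging 5 CPM or more were changed. That check does not cover genes as low as HLA-DMA and CIITA, nor the spread of these libraries. The genes and lists were chosen with earlier results of these data known. The text names all 10 genes, from each list the called genes and the 2 of highest FPKM, and the 5 genes most correlated with HLA-DMB. A gene that this rule names is not reported here. Others are named as examples chosen after their values were seen. Also tried were DESeq2 1.42.0, upper-quartile and RLE scaling, other count filters, a replicate block, fits of 6 libraries, limma 3.58.1 on log2(FPKM + 1) and log2(FPKM + 0.1), transcript counts summed per gene, the study's threshold, exclusion of mitochondrial genes and of libraries. Libraries of a gel were never duplicates, with chi-square values per degree of freedom from 2.87 to 21.8 between them. Promoters came from RefSeq. Figures used Python 3.11.15, pandas 2.3.3 and matplotlib 3.10.9.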

Additional observations from a re-analysis of the deposited data

Results flagged for a closer look

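IFI30 stood out because the transcript table, which the comparisons do not use, held a signal that the gene table lacked. Summed over its transcripts, IFI30 had a mean of 9.606 FPKM over the 9 libraries, against 2 counts in all in the gene table. Of 14042 genes with a transcript and a mean of at most 3 counts per library in the gene table, 30 (0.214%) had a summed transcript FPKM of at least 5, and IFI30 ranked 13 among them. With transcript counts summed per gene, edgeR gave IFI30 a log2 difference of 0.06 (standard error 0.36, adjusted p = 0.974) between 0.5 and 25 kPa, -0.18 (standard error 0.36, adjusted p = 0.958) between 0.5 and 4 kPa and 0.24 (standard error 0.36, adjusted p = 0.902) between 4 and 25 kPa. Whether the overlap with AC007192.1 accounts for the missing counts was not tested.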

How the results depend on the processing

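For HLA-DMB the log2 fold change stayed between 1.51 and 2.22 for 0.5 against 25 kPa, between 1.12 and 1.81 for 0.5 against 4 kPa and between 0.35 and 0.89 for 4 against 25 kPa in all 22 alternatives of each. Of 258 alternative values of the 4 tested genes, 7 reversed and 242 kept direction and side of the threshold, counting estimates that stayed uncalled. The tally includes the 22 values of HLA-DMB in each comparison, whose difference chose the family, so nothing is read from it. CIITA with transcript counts summed went to -0.54 (0.5 against 25 kPa) and -1.55 (4 against 25 kPa), and between 0.5 and 4 kPa it went to -0.25 without both replicate 3 libraries and -0.11 without replicate 3 of 0.5 kPa. HLA-DMA between 4 and 25 kPa went to -0.009 without both replicate 3 libraries, -0.02 without replicate 3 of 4 kPa and -0.021 without replicate 3 of 25 kPa. With a library left out these ranged from -0.021 to 0.233 for HLA-DMA and from -0.112 to 0.589 for CIITA. The causes were not tested. The log2 ratio of HLA-DMB to HLA-DMA was 1.61 higher on 0.5 than on 25 kPa (1.47 to 1.81 with a library left out). It was 1.09 higher on 0.5 than on 4 kPa (1.00 to 1.25) and 0.52 higher on 4 than on 25 kPa (0.35 to 0.72). With FPKM summed over transcripts, an alternative added after seeing the data, these were 1.37, 0.93 and 0.44.

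Counts of calls moved more. For all genes the calls were 1092, 335 and 147 (0.5 against 25, 0.5 against 4 and 4 against 25 kPa). For 0.5 against 25 kPa they were 724 by limma with pseudocount 1, 707 with pseudocount 0.1, 382 with no minimum FPKM, 97 with transcript sums, 1936 without both replicate 3 libraries and 372 by the study's threshold. For 0.5 against 4 kPa they were 684 without a filter, 191 in the 6 libraries alone, 165 by limma with no minimum, 34 with transcript sums, 895 without both replicate 3 libraries and 174 by the study's threshold. For 4 against 25 kPa they were 97 with upper-quartile scaling, 380 in DESeq2, 479 without a filter, 41 in the 6 libraries alone, 51, 52 and 33 by limma in the same order, 16 with transcript sums and 1119 without both replicate 3 libraries. Upper-quartile scaling called 620 genes higher and 432 lower for 0.5 against 25 kPa, where TMM called 500 and 592, and 69 and 28 for 4 against 25 kPa, where TMM called 71 and 76. All 4 genes stayed positive under both scalings. Leaving out a library gave 367 to 1966, 135 to 584 and 25 to 302 genes.

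Of the 4 class II genes, calls for 0.5 against 25 kPa were 2 in DESeq2, 3 without a filter, 2 in the 6 libraries alone, 2 by the study's threshold and 1 to 2 with a library left out. For 0.5 against 4 kPa they were 2 without a filter, 0 with transcript sums and 1 to 1 with a library left out, and for 4 against 25 kPa 1 without a filter and 0 to 0. Pathway calls for 0.5 against 25 kPa were 11 without a filter, 8 in the 6 libraries alone, 3 by limma with no minimum, 0 with transcript sums, 13 without both replicate 3 libraries, 1 by the study's threshold and 2 to 11 with a library left out (11 without replicate 3 of 4 kPa, 2 without replicate 4 of 25 kPa). For 0.5 against 4 kPa they were 6 without a filter, 1 with transcript sums, 11 without both replicate 3 libraries, 1 by the study's threshold and 2 to 7. For 4 against 25 kPa they were 2 without a filter, 0 with transcript sums, 7 without both replicate 3 libraries and 1 to 3.

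Deviations of same-numbered libraries of different gels had correlations of -0.23 to 0.14, and those of the other pairs -0.23 to 0.23. Between 0.5 and 4 kPa replicates 2 and 3 had 0.14 each and replicate 1 had -0.01. Whether libraries of the same number share a batch was not tested. With the replicate number as a block, calls were 215, 146 and 16 genes, HLA-DMB had 2.17, 1.52 and 0.65, and pathway calls were 2 for 0.5 against 25 kPa and 0 for 4 against 25 kPa. HLA-DMA had 37 to 76 counts per library and CIITA 12 to 59, and what could be called at such depth was not tested.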
